A study of Mus musculus with 10 samples.

Results

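The genes described here are those of the mouse mitochondrial genome. They were chosen by name, as every gene of the count table whose symbol starts with mt-, and all of them lie on the mitochondrial chromosome (MT). They numbered 21 of the 33347 genes in the table: 13 mRNAs, the ribosomal RNAs mt-Rnr1 (12S, ENSMUSG00000064337) and mt-Rnr2 (16S, ENSMUSG00000064339), and 6 transfer RNAs. The annotation lists 13 mitochondrial mRNAs, 2 rRNAs and 22 tRNAs, so the 16 tRNAs outside the table were not analysed here.

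The libraries came from fibrotic lungs of wild-type (WT) mice. All animals had received bleomycin, a drug that injures the lung and is used to model pulmonary fibrosis, and all had been injected with bone marrow cells. In 5 samples the injected cells had high activity of aldehyde dehydrogenase (ALDHbr), an enzyme family whose activity is used to enrich progenitor cells, and in 5 they had low activity (ALDHdim). Strain, age, sex and the interval after injection were not among the labels. No group without injected cells or without bleomycin was part of the comparison. The labels do not say that the 5 samples of a group came from separate animals, so p-values measure only the spread between these samples, which may be technical.

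Mitochondrial DNA is a small circular genome kept in many copies per cell. Its mRNAs encode core subunits of respiratory complexes I, III, IV and V, and its rRNAs and tRNAs serve the mitochondrial ribosome that translates them. Both strands are transcribed as long precursors. The tRNAs that lie between most of the genes are cut out of them. Most of the released mRNAs receive a poly(A) tail, which in several of them completes the stop codon. Because rRNAs, mRNAs and most tRNAs of one strand start from a shared precursor, their steady levels depend strongly on processing and decay.

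Total counts ranged from 588063 in ALDHbr 2 to 2002947 in ALDHdim 2, and 10844 genes passed the filter on low counts. ALDHbr 3 and ALDHbr 5 stood apart, with 24722 and 25377 genes detected against 17044 to 21209 in the other 8 libraries, and the fold changes of the tested members are also given without them. The libraries were primed from poly(A) with an oligo(dT) primer and the sequenced insert was 81 bases long, so each count samples sequence near a poly(A) tail or an internal A-rich stretch. The sequences near the 3' ends are therefore shown first. They are given 5' to 3' on the coding strand from the GENCODE M21 transcripts of GRCm38, the mouse build named in the submitters' processing notes.

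Pieces of mitochondrial DNA have been copied into nuclear chromosomes, where they are annotated as pseudogenes. One such insertion on the minus strand, at chr1:24611535-24616197, holds annotated copies of 7 of the mRNAs in their mitochondrial order. The ends of 4 mRNAs are printed with those of their copies because the same 81-base sequences occur at both loci. How reads of these sequences were divided was not tested. Capitals mark the bases past the annotated end of the copy.

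mt-Co1 (MT:5328-6872, plus strand): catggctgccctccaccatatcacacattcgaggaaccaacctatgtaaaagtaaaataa

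Gm29216 (chr1:24615706-24616197, minus strand): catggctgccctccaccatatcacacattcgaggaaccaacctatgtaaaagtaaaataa

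mt-Co2 (MT:7013-7696, plus strand): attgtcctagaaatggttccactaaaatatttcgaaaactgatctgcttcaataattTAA

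Gm28661 (chr1:24614885-24615565, minus strand): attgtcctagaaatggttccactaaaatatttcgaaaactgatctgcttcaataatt

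mt-Atp6 (MT:7927-8607, plus strand): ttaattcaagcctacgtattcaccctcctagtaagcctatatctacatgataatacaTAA

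Gm10925 (chr1:24613974-24614651, minus strand): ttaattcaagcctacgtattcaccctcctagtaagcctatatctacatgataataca

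mt-Co3 (MT:8607-9390, plus strand): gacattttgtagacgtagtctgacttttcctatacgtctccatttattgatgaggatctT

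Gm28437 (chr1:24613189-24613971, minus strand): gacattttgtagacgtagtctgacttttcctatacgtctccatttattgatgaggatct

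Within the annotated copies, the 681 bases of Gm28661, the 678 of Gm10925 and the 783 of Gm28437 matched their mitochondrial genes with 0 mismatches. Gm29216 covered the last 492 bases of mt-Co1 with 6 mismatches, all at its start. Gm28438 differed from mt-Nd3 by 1 base, T3C, counted from the first base of mt-Nd3 with the mitochondrial base first. An 81-base read that lies within the shared part of these ends has the same letters at both loci.

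The abundant mRNAs had no copied sequence near the 3' end except mt-Nd2, of which a stretch recurs in Gm13339. Their last 30 bases are printed next, with capitals for a whole stop codon or for the single base left past the last codon. In mt-Nd4, mt-Cytb and mt-Co3 that single base was a T, so their stop codon is complete only with the A residues of the tail.

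mt-Nd4 (MT:10167-11544, plus strand): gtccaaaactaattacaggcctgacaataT

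mt-Cytb (MT:14145-15288, plus strand): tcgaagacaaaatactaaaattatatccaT

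mt-Nd1 (MT:2751-3707, plus strand): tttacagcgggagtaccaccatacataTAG

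mt-Nd2 (MT:3914-4951, plus strand): ctacccctagccccccaactaattaccTAG

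mt-Nd5 (MT:11742-13565, plus strand): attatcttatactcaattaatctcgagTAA

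mt-Nd6 (MT:13552-14070, minus strand): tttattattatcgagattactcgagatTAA

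The ends of mt-Nd5 and mt-Nd6 lie on opposite strands and share 14 base pairs. The mt-Nd5 mRNA is known to run on past its stop codon through the stretch opposite mt-Nd6. Whether the counting used strand is not stated, so reads of mt-Nd6 and of the mt-Nd5 transcript opposite it cannot be told apart in these counts.

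The rRNAs carry only short A tails, and both hold internal A-rich stretches where an oligo(dT) primer can bind. The 20 bases richest in A are printed in capitals, with 15 A in mt-Rnr1 and 16 A in mt-Rnr2. Where within each rRNA the reads began was not tested.

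mt-Rnr1 (MT:705-764, plus strand): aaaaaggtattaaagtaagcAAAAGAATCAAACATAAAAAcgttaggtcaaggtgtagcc

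mt-Rnr2 (MT:1468-1527, plus strand): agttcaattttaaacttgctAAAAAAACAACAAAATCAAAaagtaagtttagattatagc

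The 21 genes held 910149 of 13114586 counts, or 6.94%. Their share of a library's counts was 5.06%, 7.68%, 7.70%, 5.81% and 8.07% in ALDHbr 1 to 5, and 5.99%, 6.20%, 7.31%, 7.97% and 8.56% in ALDHdim 1 to 5. The groups overlapped almost throughout, with means of 6.86% ± 1.34 in ALDHbr recipients and 7.20% ± 1.11 in ALDHdim recipients (SD, n = 5 each). Counting error was far smaller than the spread between libraries: the Wilson 95% interval ran from 5.03% to 5.10% in ALDHbr 1, from 7.61% to 7.74% in the shallowest library ALDHbr 2, and from 8.51% to 8.60% in ALDHdim 5. Intervals of this kind cover counting error only. In bulk tissue, fewer cells of a type and less RNA per cell cannot be told apart.

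**Figure D1:**
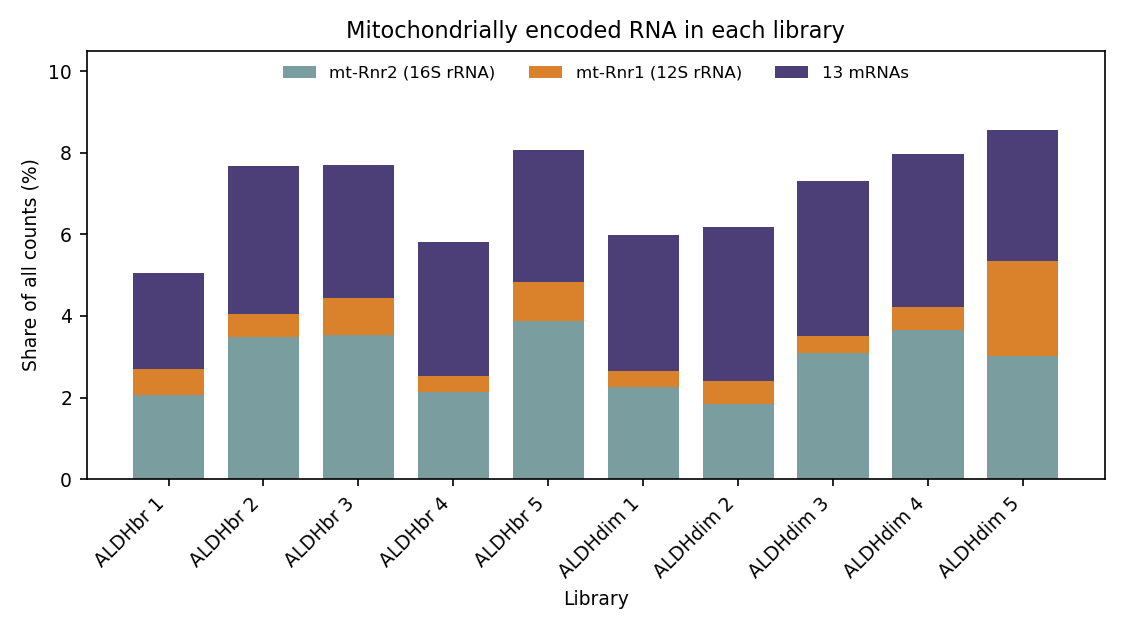
Stacked bars give the share of each library's counts (percent, from 0) held by mt-Rnr2, mt-Rnr1 and the 13 mRNAs, for 5 ALDHbr and 5 ALDHdim libraries. Total height runs from 5.06% in ALDHbr 1 to 8.56% in ALDHdim 5, and the mt-Rnr1 segment is tallest in ALDHdim 5 at 2.33%.

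Most of this spread lay in the rRNAs. The mRNAs together held 2.35%, 3.61%, 3.26%, 3.29% and 3.24% of counts in ALDHbr 1 to 5, and 3.33%, 3.77%, 3.79%, 3.76% and 3.19% in ALDHdim 1 to 5. Apart from ALDHbr 1, which was the lowest, all libraries lay between 3.19% and 3.79%. The rRNAs together ranged from 2.42% in ALDHdim 2 to 5.36% in ALDHdim 5, with means of 3.71% ± 1.04 in ALDHbr and 3.63% ± 1.20 in ALDHdim recipients (SD, n = 5 each). The coefficient of variation over the 10 libraries was 12.8% for the mRNA share and 28.9% for the rRNA share. Of the mitochondrial counts alone, rRNA made up 43.4% to 59.8% in ALDHbr and 39.0% to 62.6% in ALDHdim recipients.

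The levels of single genes are given as CPM, a library's counts scaled to a common total after TMM normalisation. Of the 21 members, 13 passed the filter on low counts: 10 mRNAs, both rRNAs and mt-Te. In mean log2 CPM, 4 members were among the 10 highest of the 10844 tested genes and 8 among the 50 highest. Per kilobase of gene length, mean levels fell from 18991 CPM for mt-Rnr2 and 8353 for mt-Rnr1 through 7646 for mt-Nd6, 7479 for mt-Cytb and 6639 for mt-Nd4 to 4818 for mt-Nd1 and 4645 for mt-Nd2. From mt-Rnr1 down to mt-Nd2 each gene's range over the libraries overlapped that of its neighbour in this order. mt-Nd5, at 1376 CPM per kilobase and at most 1805 in any library, lay below the lowest library of mt-Nd2 at 2631. Lower still were mt-Co1 at 647, mt-Te at 545, mt-Co2 at 56.7, mt-Atp6 at 27.2 and mt-Co3 at 27.1. A count near a poly(A) tail does not scale with gene length, so division by length lowers long genes such as mt-Nd5.

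**Figure D2:**
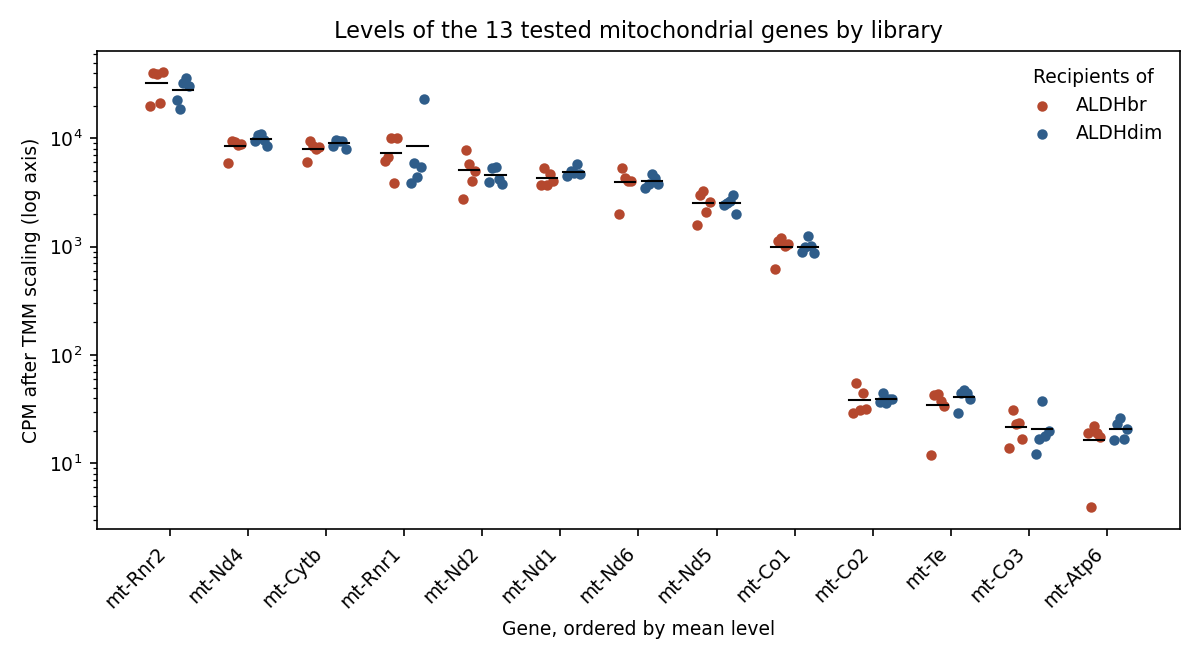
Each point is the level of a gene in one library (CPM after TMM scaling, log axis), for the 13 tested mitochondrial genes ordered by mean level, with ALDHbr and ALDHdim recipients side by side and a bar at each group's mean. The groups overlap for every gene shown, mt-Rnr1 in ALDHdim 5 stands at 23276 CPM, and ALDHbr 1 is the lowest point of several mRNAs.

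mt-Rnr2, the RNA of the large mitochondrial ribosomal subunit, was the highest of all tested genes in mean log2 CPM. Its level was 19965, 39987, 38926, 21115 and 40551 CPM in ALDHbr 1 to 5 and 22521, 18515, 32201, 36446 and 30211 CPM in ALDHdim 1 to 5. The ALDHbr libraries fell into a low pair (1 and 4) and a high set (2, 3 and 5). ALDHdim 2 was the lowest of all libraries at 18515 CPM, and the other ALDHdim libraries lay between the pair and the set. The log2 fold change, ALDHbr over ALDHdim, was 0.20 (SE 0.25, edgeR quasi-likelihood test, adjusted p = 0.9993), and -0.05 without ALDHbr 3 and ALDHbr 5.

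mt-Rnr1, the RNA of the small subunit, varied most among the tested members. It stood at 6162, 6662, 10170, 3876 and 10040 CPM in ALDHbr 1 to 5 and at 3839, 5913, 4421, 5409 and 23276 CPM in ALDHdim 1 to 5. ALDHdim 5 alone lay far above the rest, with 42369 counts against 3406 to 12053 elsewhere. Per 100 counts of mt-Rnr2 that library had 77.04 counts of mt-Rnr1, while the other 9 had 13.7 to 31.9. The mRNAs and mt-Rnr2 were not high there: its mRNA share of 3.19% was the second lowest of all, and its mt-Rnr2 level was inside the range of its group.

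The fold change of mt-Rnr1 rested on ALDHdim 5. The log2 value was -0.22 (SE 0.52) over all libraries and 0.59 without ALDHdim 5, and neither passed the test. In ALDHdim 5 the summed macrophage markers were at their highest (0.113% of counts, against 0.0245% to 0.107% in the others) and the alveolar type 2 markers at their lowest (2.24% against 2.42% to 4.50%). ALDHdim 4 was close on both, at 0.107% and 2.42%, with mt-Rnr1 at 5409 CPM. The part of these cell types in the mt-Rnr1 level was not tested. Without mt-Rnr1 the mitochondrial share was 6.21% ± 1.22 in ALDHbr and 6.40% ± 0.804 in ALDHdim recipients (SD, n = 5 each).

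The mRNAs for complex I, the NADH dehydrogenase that feeds electrons into the chain, held 70.3% to 74.3% of the mitochondrial mRNA counts. mt-Nd4, a proton-pumping membrane subunit, was at 5925, 9386, 9205, 8708 and 8962 CPM in ALDHbr 1 to 5 and at 9389, 10658, 11074, 9600 and 8579 CPM in ALDHdim 1 to 5. ALDHbr 1 was low, the other 4 ALDHbr libraries were close together, and 4 of the 5 ALDHdim libraries lay above all of them. The log2 fold change was -0.22 (SE 0.17), the smallest unadjusted p of any member at 0.211 (edgeR quasi-likelihood test, adjusted p = 0.9993).

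mt-Nd1, which lies where the membrane arm meets the peripheral arm, was at 3685, 5308, 3695, 4717 and 3999 CPM in ALDHbr 1 to 5 and at 4461, 4948, 4811, 5780 and 4704 CPM in ALDHdim 1 to 5. mt-Nd2, a further membrane subunit, was at 2731, 7869, 5759, 4051 and 5034 CPM in ALDHbr 1 to 5 and at 3940, 5345, 5475, 4194 and 3819 CPM in ALDHdim 1 to 5. Although the genes are neighbours on the same strand, the ratio of mt-Nd2 to mt-Nd1 counts ran from 0.726 in ALDHdim 4 to 1.56 in ALDHbr 3. The ratio of mt-Nd4 to mt-Cytb, the most abundant mRNAs, stayed between 0.979 and 1.16.

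mt-Nd5, another membrane subunit, was at 1583, 3018, 3292, 2085 and 2562 CPM in ALDHbr 1 to 5 and at 2414, 2513, 2633, 3003 and 2000 CPM in ALDHdim 1 to 5. mt-Nd6, the only mRNA encoded on the opposite strand to the others, was at 1995, 5326, 4260, 4024 and 4016 CPM in ALDHbr 1 to 5 and at 3455, 3820, 4724, 4262 and 3803 CPM in ALDHdim 1 to 5. Both were lowest in ALDHbr 1, and their fold changes were near 0 (log2 -0.00, SE 0.20, for mt-Nd5 and -0.03, SE 0.21, for mt-Nd6). mt-Nd6 counts exceeded mt-Nd5 counts in every library, by 1.26 to 1.93 times. The other members of the complex were almost undetected: mt-Nd3 had 7 counts and mt-Nd4l 2 counts over all 10 libraries. mt-Nd4l shares 7 bases with mt-Nd4 on the same strand and is known to be carried on a joint mRNA with it.

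mt-Cytb encodes the cytochrome b of complex III, the complex that passes electrons on to cytochrome c. mt-Cytb was at 6050, 9459, 8513, 7899 and 8299 CPM in ALDHbr 1 to 5 and at 8549, 9748, 9553, 9461 and 8031 CPM in ALDHdim 1 to 5. It was among the least variable members, with an SD within groups of 0.19 on the log2 scale, and its log2 fold change was -0.17 (SE 0.17). As the only complex III gene of this genome it gave 22.7% to 26.7% of mitochondrial mRNA counts.

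Complex IV, cytochrome c oxidase, has its catalytic core encoded by mt-Co1, mt-Co2 and mt-Co3. Together they gave only 2.78% to 3.49% of mitochondrial mRNA counts. mt-Co1 was at 616, 1121, 1200, 1004 and 1053 CPM in ALDHbr 1 to 5 and at 894, 996, 1243, 1007 and 869 CPM in ALDHdim 1 to 5. ALDHbr 1 was again the lowest, and the log2 fold change was -0.01 (SE 0.18). mt-Co2 ranged from 29.1 to 54.8 CPM with ALDHbr cells and from 35.7 to 44.9 CPM with ALDHdim cells, while mt-Co3 lay between 13.9 and 31.3 CPM in the first group and between 12.1 and 37.4 CPM in the second.

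Complex V, the ATP synthase, was the least counted. mt-Atp6, the channel subunit of its membrane part, was at 19, 3.91, 22.0, 18.9 and 17.5 CPM in ALDHbr 1 to 5 and at 16.3, 23.2, 26.4, 16.8 and 20.9 CPM in ALDHdim 1 to 5. The low value belonged to the shallowest library, where it rested on 2 counts. mt-Atp8, which overlaps mt-Atp6 by 43 bases, had 4 counts in all.

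Counts of these mRNAs and rRNAs were sorted by copied 3' sequence. Each gene's last 300 bases were read as overlapping windows of 81 bases, the insert length, and windows found letter for letter in an annotated nuclear transcript were counted as copied. In 6 genes 98.6% to 100% of the windows were copied: mt-Co1, mt-Co2, mt-Co3, mt-Atp6, mt-Nd3 and mt-Nd4l. Those 6 held 13499 counts, or 1.48% of the mitochondrial total. In mt-Nd2 it was 22.3% and in the 8 others 0%, and these 9 genes held 98.5% of the total. mt-Nd4 had 61.3% of its windows copied over its whole length but 0% near its 3' end. mt-Atp8 was nearly uncounted too, with 0% copied in annotated transcripts. In the mitochondrial order it lies between mt-Co2 and mt-Atp6. The stretch of the nuclear insertion between their copies Gm28661 and Gm10925 was not searched. The 0% therefore does not show that mt-Atp8 lacks a nuclear copy.

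Several nuclear copies had more counts than the mitochondrial genes they match. Gm28437 had 1116, 886, 1168, 1281 and 1589 counts in ALDHbr 1 to 5 and 1234, 2018, 1506, 1250 and 1861 in ALDHdim 1 to 5, while mt-Co3 had 22, 16, 18, 30 and 20 and then 17, 33, 44, 21 and 36. The copy exceeded the mitochondrial gene by 34.2 to 79.5 times in every library. Over all libraries Gm10925 had 4000 counts against 252 for mt-Atp6, and Gm28438 had 229 against 7 for mt-Nd3. For mt-Co2 the copies had 9626 counts against 495, of which Gm13341 on chromosome 2 held 8597 although it shared only 126 windows with the gene, and Gm28661 held 1029 with 601 windows shared. For mt-Co1 member and copies were nearly equal, at 12486 and 12836 counts. For mt-Nd4, whose copy stops short of the 3' end, the order was the other way round, with 117486 counts against 1340 for Gm28439.

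**Figure D3:**
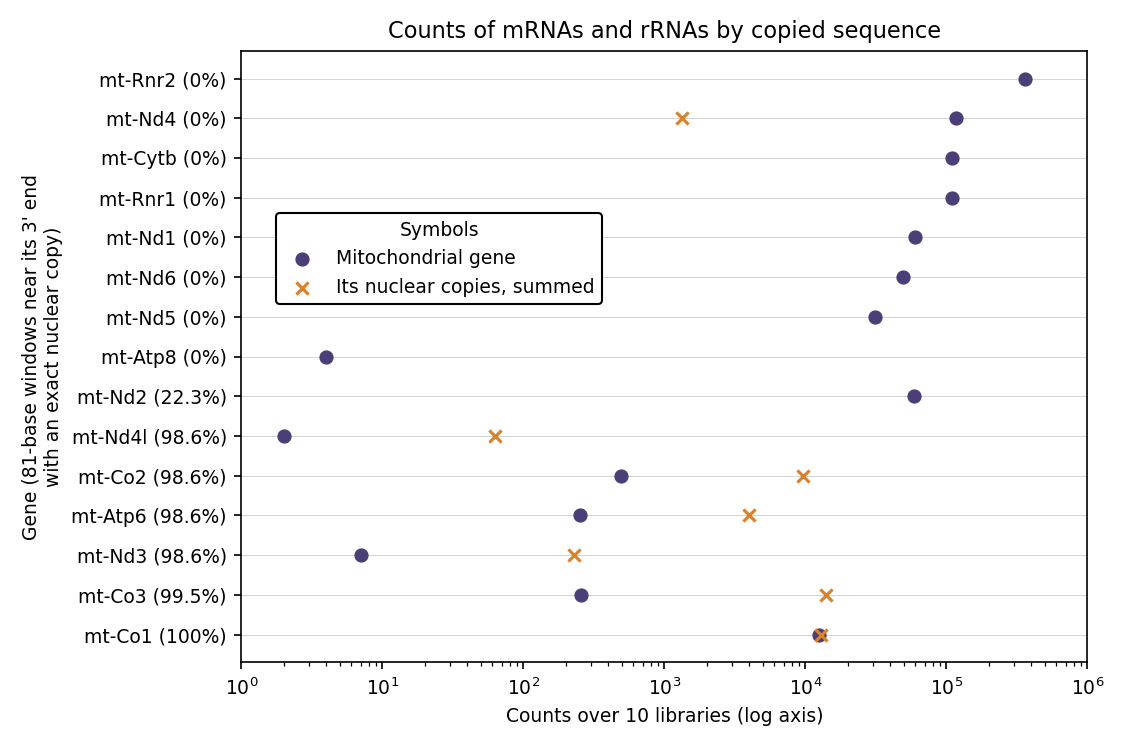
Circles give the summed counts of each mitochondrial mRNA and rRNA over 10 libraries (log axis) and crosses those of the nuclear copies of 7 of them, with the percent of 81-base windows near the gene's 3' end that have an exact nuclear copy beside each name. The 6 genes with 98.6% to 100% of windows copied hold 2 to 12486 counts and lie at or left of their copies, and mt-Nd4 lies right of its copy.

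The treatment of reads that fit several loci is not stated for the deposited counts, so levels of these 6 genes, and their counts relative to other members, are uncertain. Members and copies were also added together and scaled to the same total as CPM, by all counts of a library and without TMM normalisation. These sums are therefore not comparable with the CPM values of single genes. On this scale mt-Co3 was at 1198 ± 309 after ALDHbr cells and 1060 ± 133 after ALDHdim cells (SD, n = 5 each). mt-Atp6 was at 308 ± 44.7 and 330 ± 40.3 (SD, n = 5 each). The 9 listed copies that share a window with a member held 0.227% to 0.375% of a library's counts, and adding them moved the mitochondrial share to 7.19% ± 1.40 and 7.53% ± 1.12. Only annotated transcripts were searched for copies.

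Of the 6 tRNAs, mt-Te (glutamate) was the only one that passed the filter, with 19, 22, 34, 48 and 41 counts in ALDHbr 1 to 5 and 41, 88, 56, 53 and 72 in ALDHdim 1 to 5. Mature tRNAs have no poly(A) tail. mt-Te ends immediately before mt-Nd6 on the same strand, and had 6.03 to 11.6 counts per 1000 of mt-Nd6. The whole gene is printed because its 69 bases are shorter than the sequenced insert.

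mt-Te (MT:14071-14139, minus strand): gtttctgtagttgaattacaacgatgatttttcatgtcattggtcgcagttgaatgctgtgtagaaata

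Its log2 fold change was -0.33 (SE 0.27), and -0.07 without ALDHbr 1. mt-Tp (proline), also on the minus strand and 67 bases long, had 3 to 11 counts per library and 73 in all. mt-Tq had 8 counts in all, mt-Tn 3, and mt-Tm and mt-Tc 2 each. All tRNAs together stayed at or below 0.00538% of a library's counts.

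No member passed the test between recipients of ALDHbr and ALDHdim cells. By the edgeR quasi-likelihood test with Benjamini-Hochberg adjustment over all 10844 tested genes, 0 of the 13 tested members passed an adjusted p of 0.05, as did 0.0% of all genes in either direction. At an unadjusted p under 0.05 there were 0 members and 402 genes, or 3.71% of all tested. No member had groups that did not overlap in CPM, which was the case for 58 genes or 0.535%. DESeq2 also called 0 genes.

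**Figure D4:**
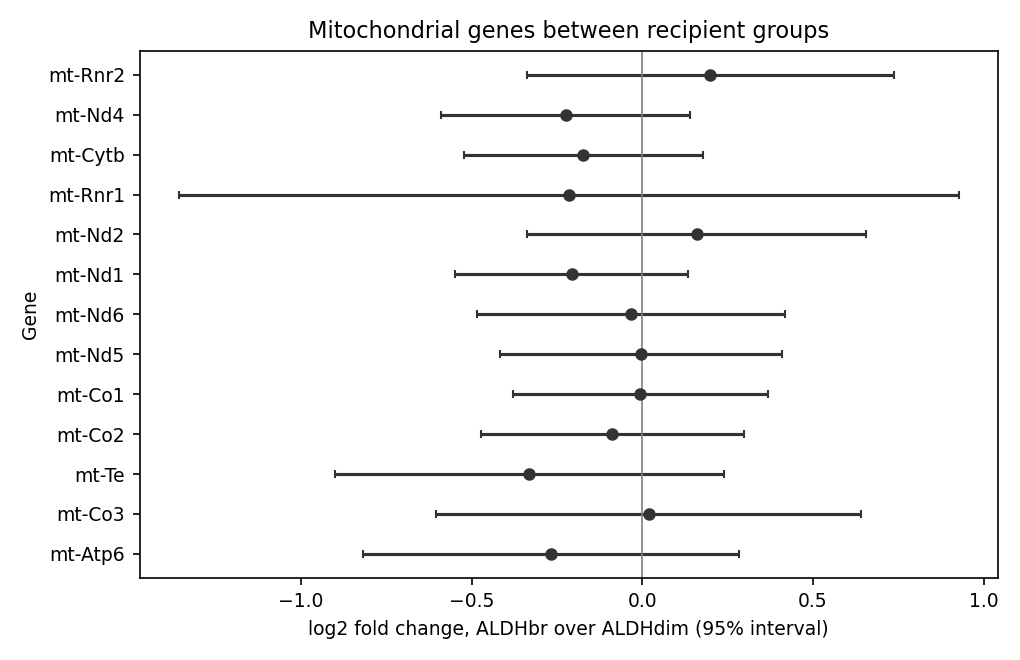
Points give the log2 fold change of each tested mitochondrial gene, ALDHbr over ALDHdim recipients, with its 95% interval from the edgeR fit, ordered by mean level. Every interval crosses 0, and that of mt-Rnr1 is the widest.

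Of the 13 estimates, 3 were above 0 (mt-Rnr2, mt-Nd2 and mt-Co3) and 10 below, with a median of -0.09 on the log2 scale. Over all tested genes 51.9% were above 0 and the median was 0.01. The estimates of mt-Nd1 (-0.21, SE 0.16), mt-Atp6 (-0.27, SE 0.26) and mt-Co2 (-0.09, SE 0.18) were of the same order as their errors or smaller. Several estimates moved when libraries were left out. Without ALDHbr 1 the log2 fold change moved to -0.09 for mt-Cytb and -0.12 for mt-Nd4, and without ALDHbr 2 to -0.12 for mt-Atp6. For mt-Rnr2 it ran from 0.08 without ALDHdim 2 to 0.33 without ALDHbr 1. Leaving out the pair that stood apart in genes detected moved most estimates further below 0. Without ALDHbr 3 and ALDHbr 5 it was -0.62 for mt-Rnr1, -0.53 for mt-Te, -0.38 for mt-Atp6, -0.30 for mt-Nd4, -0.21 for mt-Cytb, -0.17 for mt-Nd5, -0.13 for mt-Co1, -0.11 for mt-Nd1 and -0.08 for mt-Nd6. It was then 0.10 for mt-Nd2, 0.06 for mt-Co3 and 0.05 for mt-Co2. None of these passed the test.

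In 12 of the 13 members the 95% interval lay within a 2-fold change in either direction, and for mt-Rnr1 it reached from 0.390-fold to 1.90-fold. In simulated counts for these libraries the test recovered 21.2% of genes changed 1.5-fold and 73.2% of genes changed 2-fold. Each simulation held 200 changed genes drawn from all 10844 tested genes, which eases the adjusted threshold, while 0 genes were called in the data. The median biological coefficient of variation was 23.4% for the members and 17.0% for all tested genes, so these rates are not those of the members.

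The spread between libraries of a group differed widely among the members. Their median SD within groups was 0.40 on the log2 scale against 0.31 for all tested genes, with 0.84 for mt-Rnr1, 0.65 for mt-Atp6 and 0.55 for mt-Te at the top, and 0.19 for both mt-Cytb and mt-Nd1 at the bottom. For the 10 tested mRNAs alone the median was 0.32. ALDHbr 1 was the lowest of all libraries for mt-Cytb, mt-Te, mt-Nd4, mt-Nd5, mt-Nd6, mt-Co1, mt-Co2, mt-Nd1 and mt-Nd2. In ALDHbr 1 the summed endothelial markers were at 0.174% of counts, against 0.0689% to 0.186% elsewhere. The highest value was in ALDHdim 2, which also had the highest mt-Cytb level at 9748 CPM. The part of endothelial cells in the mitochondrial levels was not tested.

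Whether members move together from library to library was read from 6 pairs chosen by role, correlated on log2 CPM over the 10 libraries, with permutation p-values adjusted over the 6. mt-Nd6 and mt-Nd5 had Pearson's r of 0.81 (adjusted permutation p = 0.034) and Spearman's rho of 0.82 (adjusted permutation p = 0.035). Their r was 0.47 without ALDHbr 1 and ALDHbr 2. Reads of mt-Nd6 and of the mt-Nd5 transcript opposite it cannot be told apart, so the values of this pair may not be independent. mt-Co1 and mt-Cytb had r of 0.82 (adjusted permutation p = 0.040) but rho of 0.48 (adjusted permutation p = 0.20), and r fell to 0.26 without ALDHbr 1 and ALDHdim 3. Both relations rested on few libraries. Without ALDHbr 1 alone r was 0.56 for mt-Nd6 and mt-Nd5 and 0.41 for mt-Co1 and mt-Cytb, and both missed the threshold (adjusted permutation p = 0.33 each).

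mt-Co1 and mt-Co3 had r of 0.69 (adjusted permutation p = 0.048) and rho of 0.72 (adjusted permutation p = 0.068), with r of 0.61 without ALDHbr 1 and ALDHdim 3. This call was lost with 8 of the 10 libraries left out in turn. mt-Rnr2 and mt-Co1 had r of 0.60 (adjusted permutation p = 0.079) and rho of 0.68 (adjusted permutation p = 0.068), with r of 0.53 without ALDHbr 1 and ALDHdim 2. mt-Nd1 and mt-Nd4 had r of 0.57 (adjusted permutation p = 0.10) and rho of 0.64 (adjusted permutation p = 0.083), and r was 0.28 without ALDHbr 1 and ALDHbr 3. The rRNAs, neighbours on the same precursor, had r of 0.40 (adjusted permutation p = 0.26) and rho of 0.43 (adjusted permutation p = 0.22), the lowest of the 6 pairs over all libraries, with r of 0.49 without ALDHbr 3 and ALDHdim 5.

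Most respiratory chain subunits are encoded in the nucleus and imported. Of 79 such genes of complexes I, III, IV and V in the table, 77 were tested and 0 were called (edgeR, adjusted p). Their estimates were above 0 in 64 and below in 13, where 51.9% of all tested genes were above 0. The median log2 fold change was 0.14, the opposite side of 0 from the mitochondrial members at -0.09. How the estimates of this list move with libraries left out is not given here. Ndufb4, an accessory subunit of complex I, had a log2 fold change of 0.49 (SE 0.20), and Cox4i1, a complex IV subunit, 0.37 (SE 0.16). Atp5k of complex V stood at 0.44 (SE 0.16). In complex III, Uqcr11 stood at 0.35 (SE 0.16) and Uqcrc2, a core subunit, on the other side at -0.34 (SE 0.16). All of these had an adjusted p of 0.9993 (edgeR).

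Together the nuclear subunits held 1.37% ± 0.121 of counts with ALDHbr cells and 1.28% ± 0.0912 with ALDHdim cells (SD, n = 5 each). The share was highest in ALDHbr 2, the shallowest library, at 1.51% and in ALDHbr 3 at 1.46%. The other ALDHbr libraries lay from 1.19% to 1.36% and the ALDHdim libraries from 1.14% to 1.37%. The ratio of mitochondrial mRNA counts to nuclear subunit counts was 1.98, 2.40, 2.23, 2.42 and 2.38 in ALDHbr 1 to 5 and 2.64, 3.32, 2.78, 2.84 and 2.39 in ALDHdim 1 to 5. ALDHdim 1 to 4 lay above all ALDHbr libraries and ALDHdim 5 lay among them, so the groups overlapped. This ratio was chosen after its values were seen and is given without a test. Its means were 2.28 ± 0.186 and 2.79 ± 0.339 (SD, n = 5 each). The difference kept its direction with any 1 library left out. Given how the libraries lay, leaving out 1 could not turn it, so this adds no support. With the nuclear copies added to the mitochondrial mRNAs the means were 2.52 ± 0.212 and 3.05 ± 0.361.

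**Figure D5:**
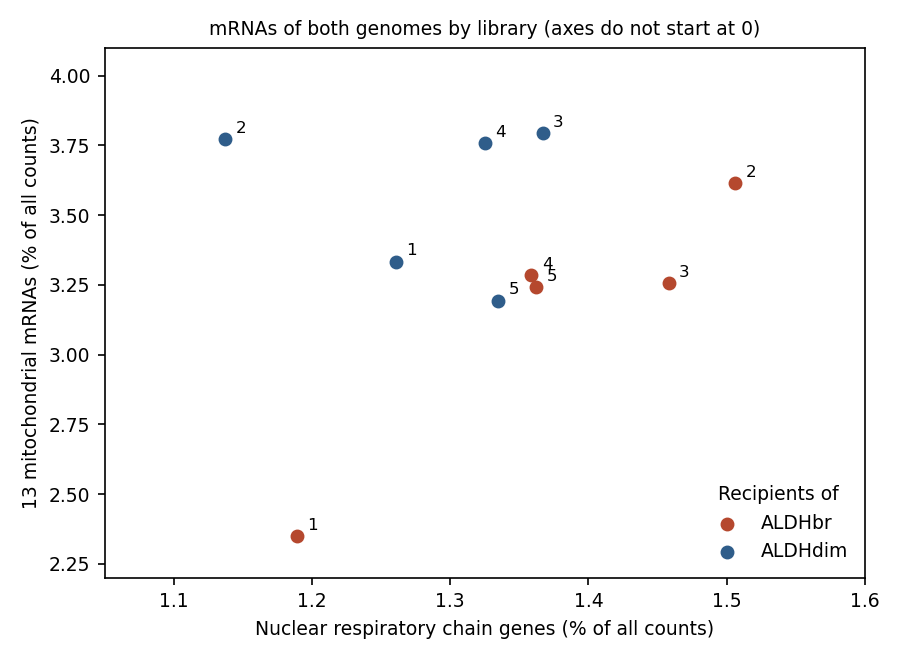
Each point is one library, with the counts of nuclear respiratory chain genes on the horizontal axis and those of the 13 mitochondrial mRNAs on the vertical axis, both as percent of all counts. Numbers are the replicate numbers, ALDHbr 1 is at the lower left with 1.19% and 2.35%, and ALDHdim 2 is at the upper left with 1.14% and 3.77%.

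Cardiac muscle and brown fat are rich in mitochondria, so their markers were read beside these values. Whether such transcripts came from the lung itself or from tissue carried over with it cannot be told apart here. The 10 cardiac muscle markers summed to 0.0195% to 0.0374% of counts with ALDHbr cells and 0.0260% to 0.0418% with ALDHdim cells. Of 8 tested, 1 estimate was above 0 and 7 below, with a median log2 fold change of -0.40. An unadjusted p under 0.05 (edgeR quasi-likelihood test) was found for 3 of the 8, against 3.71% of all tested genes. By adjusted p 0 of them were called. The 5 brown fat markers summed to 0.00111% to 0.00221% and 0.00121% to 0.00210%. No cardiac or brown fat marker was at 0 over all libraries, Nppa, Mb and Elovl3 had under 10 counts each, and the part of these cells in the mitochondrial levels was not tested. Of the markers of lung epithelium, those of alveolar type 2 cells summed to 2.24% to 4.50% and those of club cells to 1.65% to 4.75% of counts.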

How the data were processed

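RNA of 10 lung samples was sequenced with BRB-seq, a pooled 3' method with a 10 nt molecular identifier and a 9 nt sample barcode, per the labels' protocols. The authors deposited 1 table of whole-number counts per gene. The submitters' processing notes name the aligner HISAT2 2.2.1, the counter featureCounts 2.0.1, the trimmer Trim Galore 0.6.7, UMI-tools and DESeq2, with the builds GRCm38 and GRCh38. Nothing says how molecular identifiers were collapsed, whether strand was used, how multimapped reads were treated or which annotation was counted.

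From the deposited counts, levels were computed as CPM after TMM scaling, except for sums of members and copies, which used total counts alone. All genes were fitted with edgeR 4.0.16 in R 4.3.3 (filterByExpr with a minimum count of 10, quasi-likelihood test with robust dispersion, Benjamini-Hochberg adjustment, threshold 0.05), with all 10 libraries and no covariate. The 10844 tested genes held 97.3% of counts, and the common biological coefficient of variation was 19.7%. Alternatives were RLE scaling, scaling without mitochondrial genes, other filters, DESeq2 1.42.0, a replicate block and leaving libraries out. The fit was tested on simulated counts, where 4.93% of calls were false. No pair of libraries agreed within sampling noise: the lowest chi-square per degree of freedom was 2.21. Correlations used 100000 permutations, two-sided (scipy 1.17.1).

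Genes and lists were chosen with earlier results of these data known. All mt- genes were described, with values per library for those that passed the filter. Of each nuclear list up to 4 genes of smallest p, plus Polrmt, Tfam, Lrpprc, Slirp, Ppargc1a and Fastk, could be named. Sequences came from GENCODE M21 transcripts, and the deposited barcode sheet holds no measurement and was not used.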

Additional observations from a re-analysis of the deposited data

Results flagged for a closer look

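In 96 sets of 5 values, the highest or lowest library was compared with the others by the gap to its neighbour as a share of the group's range (Dixon's 95% limit). Chance alone passes about 1 in 20 sets, or 4.8 of the 96, and 8 passed. The values follow without an explanation, and none was tested.

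Of the mitochondrial genes, 3 passed. mt-Rnr1 was at 23276 CPM in ALDHdim 5 with the other ALDHdim libraries between 3839 and 5913 CPM, and the gap was 0.893 of the range. mt-Nd4 was at 5925 CPM in ALDHbr 1 with the other ALDHbr libraries between 8708 and 9386 CPM. mt-Atp6 was at 3.91 CPM in ALDHbr 2 against 17.5 to 22.0 CPM, a value that rests on 2 counts in the shallowest library.

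The other 5 were nuclear genes. Among ALDHbr libraries, Tefm, a mitochondrial transcription elongation factor, was at 15.5 CPM in ALDHbr 3 against 7.82 to 10.0 CPM. Ppargc1a, a coactivator of mitochondrial biogenesis, was at 23.3 CPM in ALDHbr 3 against 5.87 to 10.8 CPM. Nfe2l2, a regulator of antioxidant genes, was at 186 CPM in ALDHbr 2 against 265 to 293 CPM. Among ALDHdim libraries, Tbrg4, a member of the FASTK family, was at 18.7 CPM in ALDHdim 5 against 12.6 to 13.6 CPM. Ndufb4 of complex I was at 168 CPM in ALDHdim 3 against 125 to 137 CPM.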

How the results depend on the processing

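The count of genes past the threshold was 0 under each alternative run but 1: with no filter on low counts edgeR called 185 genes (182 higher and 3 lower in ALDHbr recipients, median log2 fold change 0.22), while DESeq2 called 0; the cause was not tested. No mitochondrial gene passed under any alternative (smallest adjusted p 0.309). The sign of 8 of the 13 members turned under some alternative. The log2 fold change became 0.0032 for mt-Nd5 and 0.00078 for mt-Co1 with RLE scaling, -0.039 for mt-Co3 with no filter, and 0.051 for mt-Co2 and -0.046 for mt-Rnr2 without ALDHbr 3 and ALDHbr 5. With 1 library left out, it ran from -0.17 to 0.13 for mt-Nd6, -0.11 to 0.12 for mt-Nd5, -0.12 to 0.31 for mt-Co3, -0.21 to 0.0027 for mt-Co2, -0.075 to 0.13 for mt-Co1, -0.059 to 0.32 for mt-Nd2 and -0.41 to 0.59 for mt-Rnr1. With the log2 share of counts in place of CPM, r was 0.60 for mt-Co1 and mt-Co3, 0.71 for mt-Co1 and mt-Cytb and 0.74 for mt-Nd6 and mt-Nd5, none past the threshold. Leaving out 1 library, chosen after seeing the data, gave r of 0.61 to 0.75, 0.41 to 0.87 and 0.56 to 0.85 for these pairs and 0.50 to 0.70 for mt-Rnr2 and mt-Co1, the last past the threshold without ALDHdim 2. The call was lost without ALDHbr 1, ALDHbr 2 or ALDHdim 5 for mt-Nd6 and mt-Nd5, without these, ALDHdim 1 or ALDHdim 3 for mt-Co1 and mt-Cytb, and without any 1 library but ALDHbr 5 and ALDHdim 2 for mt-Co1 and mt-Co3. The difference in mitochondrial share, ALDHbr minus ALDHdim, was -0.34 percentage points (-0.64 to 0.11 with 1 library left out, above 0 without ALDHbr 1).

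Same-numbered libraries of the groups correlated at 0.062 to 0.366 in their deviations from the group means, and not every library correlated best with its own number, so the numbers were not taken as pairs. With the number as a replicate block 0 genes were called, and mt-Rnr1 turned to 0.077. Counts were low for mt-Co2, mt-Co3, mt-Atp6 and the tRNAs, with 2 to 89 per library where tested. For mt-Co2, mt-Co3 and mt-Atp6 the parts of depth and of reads shared with nuclear copies were not tested.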

Other observations

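Nuclear genes that replicate and transcribe mitochondrial DNA and process its RNA were read from lists. Of 12 tested genes of mitochondrial DNA replication and transcription, 6 estimates were above 0 and 6 below (median log2 fold change -0.01). Polrmt, the mitochondrial RNA polymerase, stood at 0.03 (SE 0.38), and Tfam, which packages mitochondrial DNA and starts its transcription, at -0.03 (SE 0.19). Of 21 tested genes of RNA processing and stability, 9 were above 0 and 12 below (median -0.04). Lrpprc, which stabilises mitochondrial mRNAs, stood at -0.07 (SE 0.19), and its partner Slirp was not analysed here. Of 9 tested regulators of mitochondrial biogenesis, 3 were above 0 and 6 below (median -0.03), with Ppargc1a at -0.05 (SE 0.33). None of these genes passed the test (edgeR, adjusted p of 0.9993 for each one named).

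Fastk, a founding member of a family of mitochondrial RNA-binding proteins with a known role in mt-Nd6 mRNA, had an unadjusted p under 0.05, as 1 of the 21 tested genes of its list. The lists of 12 and 9 tested genes had 0 such genes, and the share over all tested genes was 3.71%, so 1 gene across the lists is not more than the background. Its level was 28.5, 19.6, 25.9, 26.7 and 28.3 CPM in ALDHbr 1 to 5 and 44.7, 36.8, 33.2, 37.9 and 37.4 CPM in ALDHdim 1 to 5, so the groups did not overlap, as in 0.535% of all tested genes. The log2 fold change was -0.52 (SE 0.16), with an unadjusted p of 0.0047 and an adjusted p of 0.9993 by edgeR's test. The groups overlapped for mt-Nd6, with 1995 to 5326 CPM in ALDHbr and 3455 to 4724 CPM in ALDHdim recipients.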
